A study of Mus musculus with 20 samples.

Results

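Toll-like receptors are membrane receptors of innate immune cells, and 10 genes of this family and of its co-receptors were followed here in the cerebral cortex of tau transgenic mice. They were Tlr1, Tlr2 and Tlr4, which act at the cell surface, the co-receptor genes Cd14, Cd180 and Ly86, and Tlr3, Tlr7, Tlr9 and Tlr13, which act in endosomes. The genes were taken by their official symbols from a table of 21949 genes, and all 10 were found. Each gene's value is the sum over its transcripts of FPKM, fragments scaled by transcript length and by the mapped fragments of the library. PS19 mice, Tg(Prnp-MAPT*P301S)PS19Vle, carry human tau (MAPT) with the P301S mutation under the mouse prion protein promoter, and they are a model of tauopathy. There were 20 libraries, 5 in each of 4 groups, which were transgenic mice of 10 months (TG10M), wild-type mice of 10 months (WT10M), transgenic mice of 3 months (TG03M) and wild-type mice of 3 months (WT03M). All were on a (C57BL/6 x C3H)F1 background, no group had a further treatment in the labels, and total RNA came from frozen whole cortex. The labels number the replicates but do not state that each is a separate animal, so the p-values measure the spread between these samples.

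Each Toll-like receptor binds a class of microbial or endogenous molecules through its leucine-rich repeats and signals through an intracellular TIR domain, which recruits the adaptors MyD88 or TRIF and leads to NF-κB and interferon regulatory factors. Tlr2 works as a dimer with Tlr1 or Tlr6 on lipopeptides, whereas Tlr4 binds lipopolysaccharide with Ly96, after Cd14 has handed the ligand over. In the brain these receptors are known above all from microglia, the resident macrophages, and Tlr3 is known from astrocytes and neurons too.

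The sequence around the transcription start is shown for Ly86, Tlr2 and Tlr13, since the RNA of each stood higher in every TG10M library than in every library of at least 1 of the groups it was set against. Sequences were taken from RefSeq's promoter table for GRCm38.p6 for 7 of the 10 genes, and none was taken for Cd14, Tlr4 and Tlr7. Each sequence runs 5′ to 3′ from 250 bases before the start to 50 bases after it. Capitals mark matches on either strand to GAGGAAG, a core bound by the myeloid factor PU.1, or to the NF-κB consensus.
Ly86, chr13:37345095-37345394, plus strand: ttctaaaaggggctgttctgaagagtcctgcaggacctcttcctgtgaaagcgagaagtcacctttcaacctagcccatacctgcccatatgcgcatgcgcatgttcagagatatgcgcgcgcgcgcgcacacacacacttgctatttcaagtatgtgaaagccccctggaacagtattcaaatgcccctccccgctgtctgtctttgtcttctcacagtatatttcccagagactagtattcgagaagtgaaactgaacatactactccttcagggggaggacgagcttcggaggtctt
Tlr2, chr3:83841559-83841858, minus strand: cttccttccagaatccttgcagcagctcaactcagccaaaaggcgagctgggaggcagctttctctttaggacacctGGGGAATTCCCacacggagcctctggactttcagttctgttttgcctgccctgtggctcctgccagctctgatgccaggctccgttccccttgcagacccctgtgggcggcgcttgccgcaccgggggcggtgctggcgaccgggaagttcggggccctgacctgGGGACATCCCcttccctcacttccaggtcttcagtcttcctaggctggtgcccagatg
Tlr13, chrX:106143025-106143324, plus strand: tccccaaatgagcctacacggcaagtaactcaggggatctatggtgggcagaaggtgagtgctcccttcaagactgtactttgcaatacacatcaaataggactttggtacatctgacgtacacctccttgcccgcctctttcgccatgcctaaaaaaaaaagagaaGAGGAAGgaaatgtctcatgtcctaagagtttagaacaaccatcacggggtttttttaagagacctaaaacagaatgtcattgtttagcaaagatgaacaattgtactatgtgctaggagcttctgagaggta
Tlr2 held the NF-κB consensus at 2 places, one beginning 173 bases before the start (2 matches that overlap by all but 1 base) and one 8 bases before it. Tlr13 held GAGGAAG 83 bases before the start. Neither motif was in the Ly86 window, and the same was true of TGANTCA, the AP-1 motif. Of the 32851 promoters of this length in the table, 13.6% held GAGGAAG, 8.46% the NF-κB consensus and 7.81% TGANTCA. Among the other 4 genes, GAGGAAG was in Tlr1 at position -23 and in Tlr9 at -112 and 12, the NF-κB consensus was in Tlr3 at -211, TGANTCA was in Tlr9 at -58, and the Cd180 windows held none of the 3 motifs.

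The libraries held an estimated 22.5 to 30.1 M fragments (M, mega), with group medians of 24.7 M in TG10M, 25.3 M in WT10M, 26.1 M in TG03M and 23.4 M in WT03M. Replicates of a group correlated at r = 0.978 to 0.994 over genes. On the first principal component, which held 23.9% of the variance, TG10M replicates 1 and 5 and WT10M replicate 5 scored 26.2 to 30.9, and the other libraries -12.1 to 2.52. These 3 libraries are called set apart below. The Y-linked gene Ddx3y had 22.8 to 28.7 FPKM in all 20 libraries. The summed FPKM of 6 neuron markers was 2126 to 2405 over the 20 libraries, and no microglia marker of 12 was at 0 in all of them. In bulk tissue, fewer cells of a type and less RNA per cell cannot be told apart.

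The 10 genes spanned a wide range of levels, and since FPKM is scaled to transcript length they can be ranked. Ly86 had the highest FPKM in each group, and its range did not meet that of any other of the genes. Tlr3, Cd14 and Tlr4 followed in that order in all 4 groups. The ranges of Tlr3 and Cd14 overlapped in TG10M only. Below Tlr4 came Tlr2, Tlr13 and Tlr7, and those of them that were next to each other in a group's order had overlapping ranges, save Tlr7 and Tlr2 in TG03M. Tlr1 was the lowest in each group, at a mean of 0.144 FPKM over the 20 libraries, which is an estimated 4.16 to 19.7 fragments per library. Cd180 averaged 0.434 FPKM and Tlr9 0.352 FPKM. These 3 genes were under the mean of 0.5 FPKM set for testing, so 7 of the 10 were among the 13722 genes tested. Estimated fragments per library reached 151 to 695 for Ly86 and 185 to 326 for Tlr3, against 28.5 to 111 for Cd14, 14.6 to 100.1 for Tlr2 and 13.4 to 48.8 for Tlr9, and these low numbers limit the precision.

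**Figure D1:**
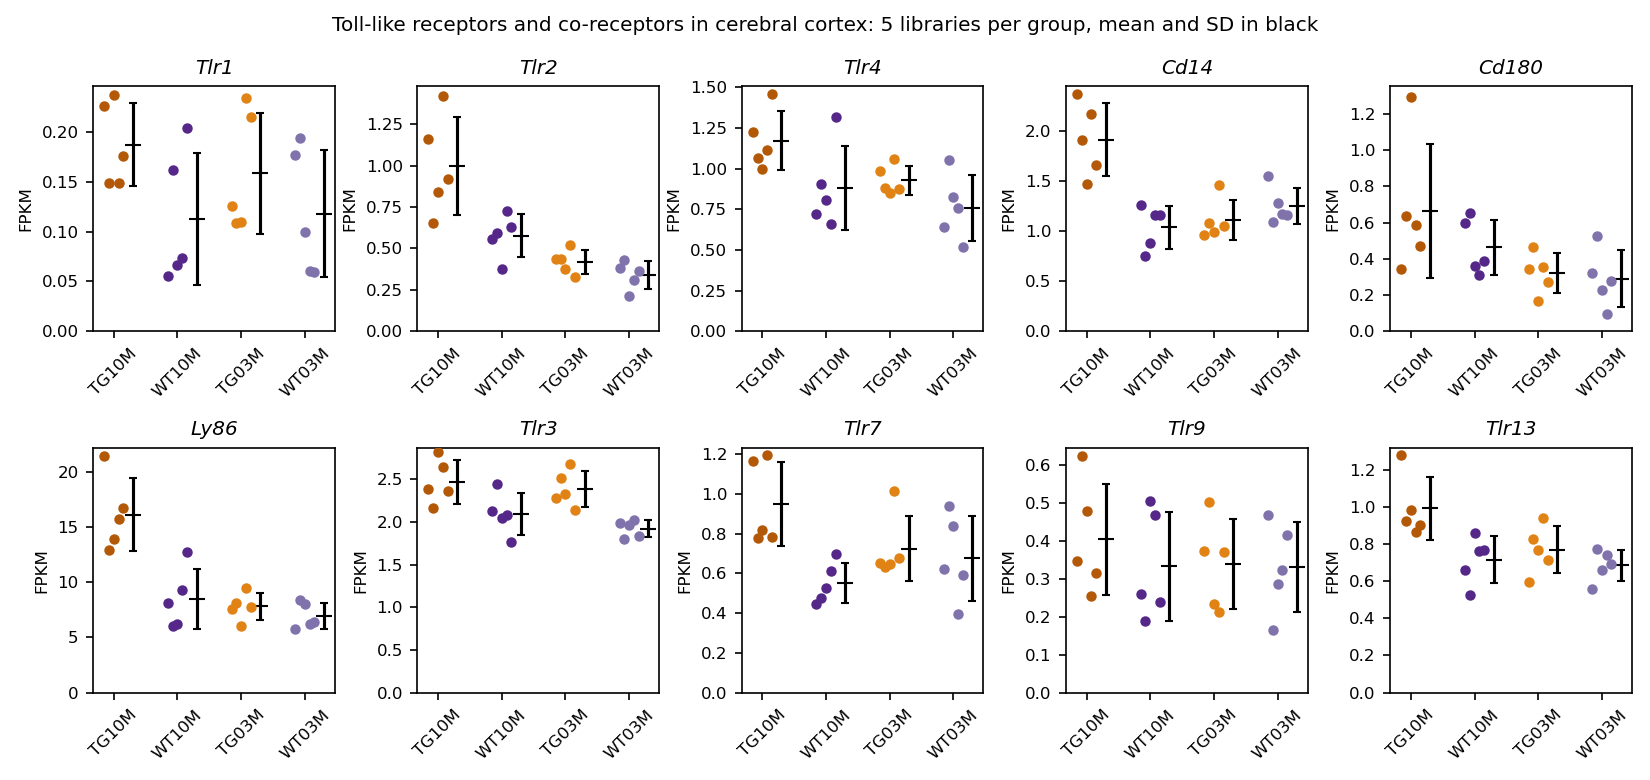
FPKM (y axis, linear, from 0) of the 10 genes in each of the 4 groups, with 1 point per library and the mean and SD in black beside the 5 points. Ly86 in TG10M lies at 12.9 to 21.4 FPKM, above the 6.01 to 12.7 FPKM of WT10M, whereas the groups overlap for Tlr1, Cd180 and Tlr9.

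The co-receptor genes Ly86 and Cd14 had more RNA in TG10M than in WT10M cortex, by 1.90-fold and 1.84-fold in mean FPKM. These were 2 of the 7 tested genes that passed at an adjusted p under 0.05 (limma, Benjamini-Hochberg over all genes tested), and 0.583% of all genes tested rose at this threshold. The mean of each of the 10 genes was higher in TG10M than in WT10M, as was the log2 mean of 50.2% of all genes tested, and the ratio of means ranged from 1.18 for Tlr3 to 1.90 for Ly86. The median difference of the 7 tested genes was 0.45 on the log2(FPKM + 0.5) scale, against 0.00 over all genes tested. For 4 genes, Ly86, Cd14, Tlr7 and Tlr13, each TG10M library lay above each WT10M library, which held for 1.65% of all genes tested. All log2 differences below are on the log2(FPKM + 0.5) scale, which understates the change of low genes.

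Among the co-receptors, Ly86 (ENSMUSG00000021423; GRCm38 chromosome 13, 37345208 to 37419036, plus strand) encodes MD-1, the secreted partner that Cd180 needs at the cell surface. Its FPKM was 21.4, 12.9, 13.9, 15.7 and 16.7 in TG10M libraries 1 to 5, against 8.08, 6.01, 6.24, 9.31 and 12.7 in WT10M libraries 1 to 5. The groups did not overlap, but WT10M replicate 5, of the set apart, lay just under the lowest TG10M library. Ly86 rose by 0.92 (SE 0.17, 95% interval 0.56 to 1.28, adjusted p = 0.0171, n = 5 per group). The difference was 0.90 among the 7 libraries of 10 months outside the set apart, and 0.56 within it, which has 1 WT10M library. A fit of the 4 groups without the set apart gave an adjusted p of 0.00788. In that fit the 3-month libraries share in the estimate of the spread, and 2.38% of all genes tested passed in either direction. Ly86 no longer passed when TG10M replicate 1 (adjusted p = 0.0599) or WT10M replicate 3 (adjusted p = 0.0698) was left out, or when the 10-month groups were fitted alone (adjusted p = 0.148).

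Cd14 (ENSMUSG00000051439; GRCm38 chromosome 18, 36725067 to 36726798, minus strand) encodes a lipid-anchored protein that passes lipopolysaccharide to Tlr4 and Ly96. It had 2.37, 1.91, 1.47, 2.17 and 1.66 FPKM in TG10M libraries 1 to 5, and 1.26, 0.747, 0.878, 1.16 and 1.16 FPKM in WT10M libraries 1 to 5. No WT10M library reached the lowest TG10M library, replicate 3. Cd14 rose by 0.65 (SE 0.12, 95% interval 0.40 to 0.90, adjusted p = 0.0149). The difference was 0.64 outside the set apart (adjusted p = 0.0271 in the fit of the 4 groups without the set apart) and 0.58 within it. Without TG10M replicates 1 or 4 or WT10M replicate 3 the adjusted p was 0.0519 to 0.0606, and with the 10-month groups fitted alone it was 0.130. Cd180 (ENSMUSG00000021624; GRCm38 chromosome 13, 102693558 to 102739629, plus strand), a receptor with leucine-rich repeats that lacks a TIR domain and is best known from B cells, had 0.341, 0.636, 1.29, 0.585 and 0.468 FPKM in TG10M and 0.599, 0.655, 0.362, 0.309 and 0.387 FPKM in WT10M. The groups overlapped, and TG10M replicate 3 was the highest of the 10 libraries. With the filter lowered to 0.1 FPKM the Cd180 difference was 0.24 (adjusted p = 0.557). Its exons overlap those of Mast4 on the other strand, and whether counting used strand is not given in the sources used here. Summed over the 3 co-receptors the level was 18.7 ± 3.33 FPKM in TG10M and 9.97 ± 2.82 FPKM in WT10M (SD, n = 5 each), most of it Ly86.

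Of the receptors at the cell surface, Tlr2 (ENSMUSG00000027995; GRCm38 chromosome 3, 83836272 to 83841767, minus strand) had 1.16, 0.652, 0.839, 1.42 and 0.922 FPKM in TG10M libraries 1 to 5. In WT10M libraries 1 to 5 it had 0.558, 0.592, 0.377, 0.725 and 0.631 FPKM. TG10M replicate 2 lay below WT10M replicate 4, so the groups overlapped through 1 library of each. The Tlr2 difference was 0.46 (SE 0.13, 95% interval 0.20 to 0.72) and did not pass (adjusted p = 0.111). It was 0.44 both outside and within the set apart. Tlr4 (ENSMUSG00000039005; GRCm38 chromosome 4, 66827584 to 66930284, plus strand), the receptor for lipopolysaccharide, had 1.22, 1.06, 0.998, 1.11 and 1.46 FPKM in TG10M and 0.723, 0.907, 0.804, 0.661 and 1.31 FPKM in WT10M. The highest value of each group was its replicate 5, of the set apart, and the other 4 WT10M libraries were below every TG10M library. The Tlr4 difference of 0.29 (SE 0.12, 95% interval 0.03 to 0.54) did not pass (adjusted p = 0.308), and it was 0.29 outside the set apart and 0.02 within it. Tlr1 (ENSMUSG00000044827; GRCm38 chromosome 5, 64924679 to 64933563, minus strand), the partner of Tlr2, averaged 0.187 ± 0.0419 FPKM in TG10M and 0.112 ± 0.0665 FPKM in WT10M, with overlap. Of its 75-base windows, 11.5% are shared with Tlr6, so that part of its reads is uncertain, whereas the other 9 genes shared none with another gene. With the lower filter the Tlr1 difference was 0.17 (adjusted p = 0.418).

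Among the endosomal receptors, Tlr7 (ENSMUSG00000044583; GRCm38 chromosome X, 167304929 to 167330558, minus strand), which binds single-stranded RNA, had 1.16, 0.779, 0.821, 1.19 and 0.781 FPKM in TG10M libraries 1 to 5. In WT10M libraries 1 to 5 it had 0.447, 0.475, 0.526, 0.614 and 0.695 FPKM. TG10M replicates 1 and 4 stood above the rest, and the groups did not overlap. The difference was 0.45 (SE 0.13, 95% interval 0.18 to 0.73) and did not pass (adjusted p = 0.129). Tlr13 (ENSMUSG00000033777; GRCm38 chromosome X, 106143204 to 106160493, plus strand), a receptor for bacterial ribosomal RNA in mice, had 1.28, 0.924, 0.982, 0.867 and 0.900 FPKM in TG10M and 0.661, 0.525, 0.857, 0.761 and 0.770 FPKM in WT10M. Only TG10M replicate 1 stood clear, and the lowest TG10M library and the highest WT10M library nearly met. The Tlr13 difference was 0.30 (SE 0.10, 95% interval 0.09 to 0.50, adjusted p = 0.183).

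Tlr3 (ENSMUSG00000031639; GRCm38 chromosome 8, 45395665 to 45411080, minus strand) binds double-stranded RNA and signals through TRIF. It had 2.39, 2.16, 2.82, 2.64 and 2.36 FPKM in TG10M libraries 1 to 5, and 2.13, 2.44, 2.05, 2.08 and 1.76 FPKM in WT10M libraries 1 to 5. The groups overlapped, and the difference of 0.20 (SE 0.08, 95% interval 0.03 to 0.36) did not pass (adjusted p = 0.263). An antisense gene, Gm45542, overlaps its exons, with the same limit on strand as for Cd180. Tlr9 (ENSMUSG00000045322; GRCm38 chromosome 9, 106222598 to 106226883, plus strand), a receptor for unmethylated CpG DNA, averaged 0.404 ± 0.147 FPKM in TG10M and 0.333 ± 0.144 FPKM in WT10M. Its values overlapped throughout, and with the lower filter the difference was 0.12 (adjusted p = 0.727). The 4 endosomal receptors summed to 4.82 ± 0.372 FPKM in TG10M and 3.69 ± 0.226 FPKM in WT10M. The 3 surface receptors summed to 2.36 ± 0.365 FPKM in TG10M and 1.57 ± 0.359 FPKM in WT10M.

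**Figure D2:**
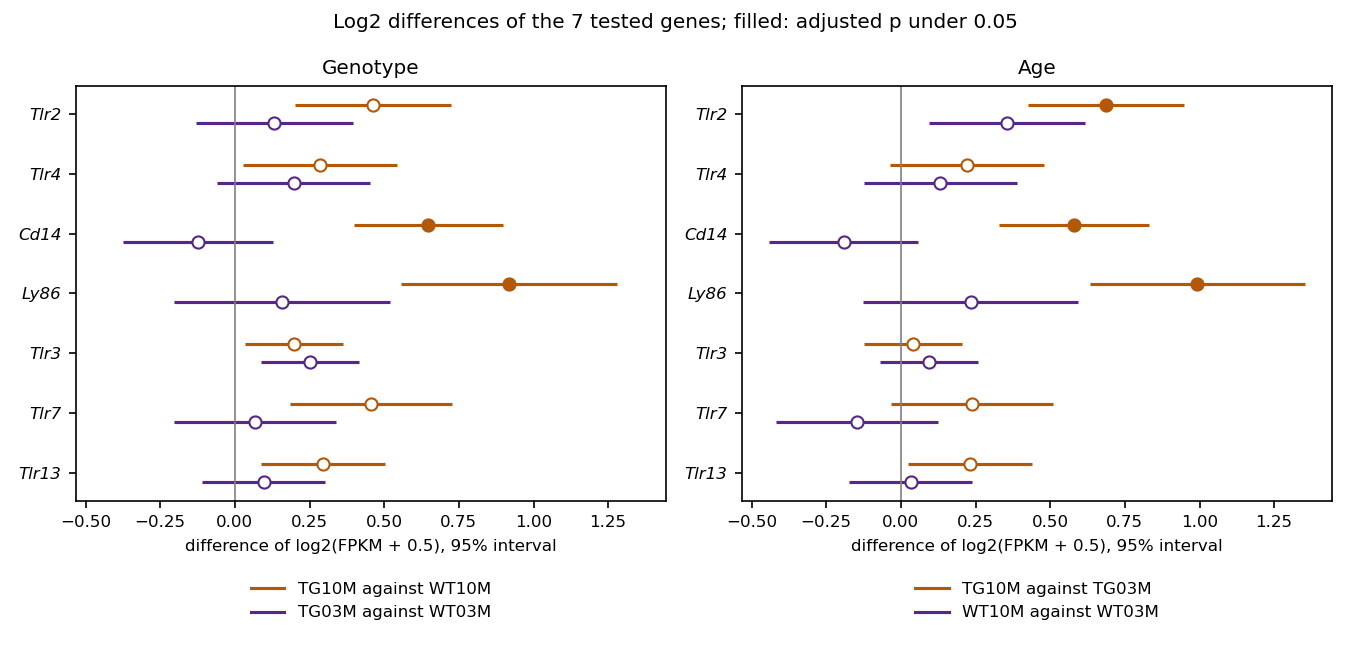
Differences on the log2(FPKM + 0.5) scale (x axis) with 95% intervals for the 7 tested genes, for genotype at each age on the left and for age in each genotype on the right. Filled points passed at an adjusted p under 0.05, which were Ly86 and Cd14 in TG10M against WT10M, and Ly86, Cd14 and Tlr2 in TG10M against TG03M.

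At 3 months no tested gene of the 7 passed, while 0.299% of all genes tested did in either direction. At an unadjusted p under 0.05 there was 1, Tlr3, against 1454 of the 13722 genes tested. The median difference of the 7 was 0.13, against -0.00 over all genes tested. Tlr3 had 2.28, 2.52, 2.32, 2.68 and 2.14 FPKM in TG03M libraries 1 to 5, against 1.99, 1.80, 1.97, 2.02 and 1.84 FPKM in WT03M libraries 1 to 5. The groups did not overlap, as for 2.01% of all genes tested, and the difference was 0.25 (SE 0.08, 95% interval 0.09 to 0.42, adjusted p = 0.227).

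For Ly86 the 3-month values were 7.54, 8.10, 6.07, 9.51 and 7.76 FPKM in TG03M and 5.73, 8.37, 8.02, 6.24 and 6.35 FPKM in WT03M. They overlapped, at a difference of 0.16 (95% interval -0.20 to 0.52, adjusted p = 0.789). Cd14 was the only gene of the 10 with a lower mean in the young transgenics (among all genes tested, 49.2% had a higher log2 mean in TG03M), at 0.959, 1.08, 0.995, 1.46 and 1.05 FPKM in TG03M and 1.55, 1.09, 1.28, 1.17 and 1.17 FPKM in WT03M. Its difference was -0.12 (95% interval -0.37 to 0.13, adjusted p = 0.758). Tlr2 had 0.435, 0.437, 0.373, 0.519 and 0.329 FPKM in TG03M and 0.384, 0.429, 0.213, 0.307 and 0.365 FPKM in WT03M, a difference of 0.13 (adjusted p = 0.751) with overlap. Tlr4 averaged 0.929 ± 0.0896 FPKM in TG03M and 0.758 ± 0.203 FPKM in WT03M (difference 0.20, adjusted p = 0.605). Tlr7 averaged 0.724 ± 0.162 FPKM in TG03M and 0.676 ± 0.214 FPKM in WT03M (difference 0.07, adjusted p = 0.896), and the sign of this difference turned without TG03M replicate 4 or WT03M replicate 4. Tlr13 averaged 0.769 ± 0.127 FPKM in TG03M and 0.684 ± 0.0826 FPKM in WT03M (difference 0.10, adjusted p = 0.768). Among the untested genes the means were 0.159 FPKM in TG03M and 0.118 FPKM in WT03M for Tlr1, 0.321 FPKM in TG03M and 0.289 FPKM in WT03M for Cd180, and 0.338 FPKM in TG03M and 0.331 FPKM in WT03M for Tlr9, and all 3 overlapped.

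In the transgenics, RNA of Tlr2, Cd14 and Ly86 was higher at 10 months than at 3 months, by 2.39-fold, 1.72-fold and 2.07-fold in mean FPKM. These 3 of the 7 tested genes rose, against 0.641% of all genes tested, and they were also the 3 whose TG10M libraries all lay above the TG03M libraries, which held for 1.84% of all genes tested. The median difference of the 7 was 0.24, against 0.00 over all genes tested. Ly86 rose by 0.99 (SE 0.17, 95% interval 0.63 to 1.35, adjusted p = 0.00688), with 16.1 ± 3.32 FPKM in TG10M and 7.79 ± 1.23 FPKM in TG03M. Tlr2 rose by 0.69 (SE 0.13, 95% interval 0.43 to 0.95, adjusted p = 0.00956), with 0.999 ± 0.298 FPKM in TG10M and 0.419 ± 0.0724 FPKM in TG03M. Cd14 rose by 0.58 (SE 0.12, 95% interval 0.33 to 0.83, adjusted p = 0.0243), with 1.91 ± 0.365 FPKM in TG10M and 1.11 ± 0.204 FPKM in TG03M. TG10M shares its libraries with the comparison against WT10M, so these rises are not independent of those above.

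Without the set apart, Ly86 still passed in the transgenics, whereas the differences of Tlr2 (0.65, adjusted p = 0.0786) and Cd14 (0.54, adjusted p = 0.105) did not. With the transgenic groups fitted alone, Tlr2 (adjusted p = 0.0721) and Cd14 (adjusted p = 0.0991) did not pass either. The Cd14 call also ended without TG10M replicates 1 or 4 or TG03M replicates 1, 2, 3 or 5, with an adjusted p of 0.0523 to 0.0922. The other 4 tested genes did not pass, with differences of 0.22 for Tlr4 (adjusted p = 0.374), 0.24 for Tlr7 (adjusted p = 0.367), 0.23 for Tlr13 (adjusted p = 0.263) and 0.04 for Tlr3 (adjusted p = 0.808), the last with a 95% interval of -0.12 to 0.20. Cd180 averaged 0.665 ± 0.370 FPKM in TG10M and 0.321 ± 0.111 FPKM in TG03M, with overlap, and with the lower filter its difference was 0.47 (adjusted p = 0.216).

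In wild-type cortex no tested gene of the 7 passed with age, against 0.0656% of all genes tested in either direction, and the median of the 7 was 0.09, against -0.00 over all genes tested. Tlr2 was the only one with an unadjusted p under 0.05, against 922 of the 13722 genes tested. It had 0.577 ± 0.128 FPKM in WT10M and 0.339 ± 0.0830 FPKM in WT03M. Its difference was 0.36 (SE 0.13, 95% interval 0.09 to 0.62, adjusted p = 0.525), and the groups overlapped. Ly86 averaged 8.47 ± 2.74 FPKM in WT10M and 6.94 ± 1.17 FPKM in WT03M, a difference of 0.23 (adjusted p = 0.881). Cd14 averaged 1.04 ± 0.216 FPKM in WT10M and 1.25 ± 0.179 FPKM in WT03M, a difference of -0.19 (95% interval -0.44 to 0.06, adjusted p = 0.855). Tlr7 was likewise lower in WT10M, at 0.551 ± 0.102 FPKM against 0.676 ± 0.214 FPKM in WT03M (difference -0.15, adjusted p = 0.895). No gene of the 10 had WT10M libraries all above the WT03M libraries, as 0.86% of all genes tested had.

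The change of the genotype difference with age was tested as an interaction, in which the 3-month difference is taken from the 10-month one. None of the 7 tested genes passed in limma, and 0.0364% of all genes tested did. Cd14 had the smallest unadjusted p of the 7 (0.000204), with an interaction of 0.77 (SE 0.17, 95% interval 0.42 to 1.13, adjusted p = 0.265). For Ly86 it was 0.76 (SE 0.24, 95% interval 0.25 to 1.27, adjusted p = 0.870) and for Tlr7 0.39 (95% interval 0.00 to 0.77, adjusted p = 0.962). Tlr2 (0.33), Tlr13 (0.20), Tlr4 (0.09) and Tlr3 (-0.05) had 95% intervals that held 0. At an unadjusted p under 0.05 there were 3, against 691 of the 13722 genes tested. The genotype differences of Ly86 and Cd14 were therefore not shown to depend on age after adjustment over all genes.

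Most microglia markers moved in the same direction as these genes at 10 months, and their part in the differences was not tested. The summed FPKM of 12 markers was 235 to 282 in TG10M, 179 to 243 in WT10M, 179 to 206 in TG03M and 174 to 198 in WT03M. All 12 were tested, and the median of their differences at 10 months was 0.29. Of the 12, 11 were higher in TG10M than in WT10M, as were 50.2% of all genes tested. Sall1 was lower, at -0.11 (adjusted p = 0.739). At 3 months the median of the markers was 0.02. There 9 of the 12 were higher in TG03M than in WT03M, as were 49.2% of all genes tested. Fcrls had the largest of the 12 differences at 10 months, at 0.82 (adjusted p = 0.0613). It passed without the set apart (adjusted p = 0.0441), as did Csf1r (adjusted p = 0.0421) and 2.38% of all genes tested in either direction. In TG10M against TG03M the median was 0.34, and Cx3cr1, Aif1 and Gpr34 were among the markers that rose. Of these 3, Cx3cr1 (adjusted p = 0.162) and Gpr34 (adjusted p = 0.178) did not pass without the set apart, and none passed with the transgenic groups fitted alone (adjusted p = 0.0721 to 0.123).

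Set against this sum, the genes parted. Per 1000 FPKM of summed microglia markers, Ly86 was at 62.6 ± 7.94 FPKM in TG10M and 42.2 ± 7.94 FPKM in WT10M, a ratio of 1.48, and the ranges of 54.9 to 75.8 in TG10M and 33.5 to 52.4 in WT10M did not meet. Cd14 was at 7.47 ± 1.13 in TG10M and 5.29 ± 1.07 in WT10M, a ratio of 1.41 with overlap. Tlr2, Tlr7 and Tlr1 had a ratio of 1.32 each, all with overlap. For Cd180 the ratio was 1.11, for Tlr13 1.06, for Tlr4 1.03, for Tlr9 0.940 and for Tlr3 0.897, again with overlap. When each marker counted alike, as the mean of the 12 log2 values, the difference of log2(FPKM + 0.5) relative to the markers was 0.61 for Ly86, 0.34 for Cd14, 0.16 for Tlr2 and 0.15 for Tlr7. In this form Tlr1 (-0.13), Cd180 (-0.06), Tlr4 (-0.02) and Tlr13 (-0.01) turned negative, Tlr3 (-0.11) and Tlr9 (-0.18) were negative too, and the ranges of all 10 genes overlapped, Ly86 included. These ratios were formed after the FPKM differences were known and carry no test. Against TG03M, the ratio in TG10M was 1.80 for Tlr2 and 1.56 for Ly86, neither with overlap. The other genes overlapped, at 1.63 for Cd180, 1.30 for Cd14, 0.990 for Tlr7, 0.975 for Tlr13, 0.955 for Tlr4, 0.920 for Tlr9, 0.896 for Tlr1 and 0.789 for Tlr3.

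**Figure D3:**
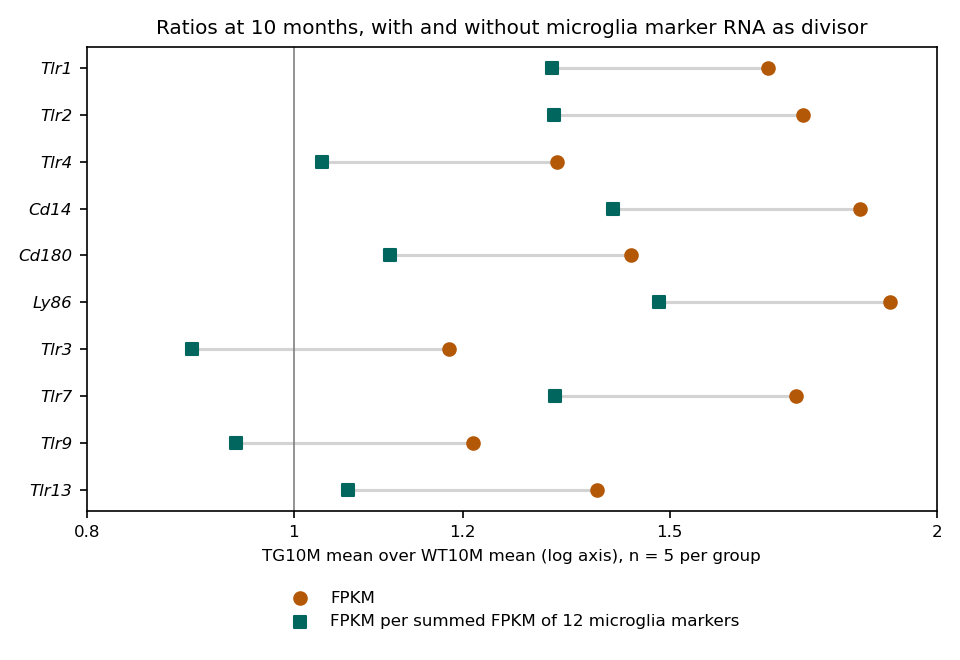
Ratio of the TG10M mean to the WT10M mean (x axis, log scale) for the 10 genes, as FPKM (circles) and as FPKM per summed FPKM of 12 microglia markers (squares), 5 libraries per group. Ly86 lies at 1.90 and 1.48, and Tlr3 and Tlr9 cross from above 1 to below it.

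Markers of other cells that express these receptors were counted in the same way. Border macrophages, with markers such as Mrc1 and Pf4, had a summed level of 8.23 to 11.7 FPKM in TG10M, 5.86 to 8.37 FPKM in WT10M, 7.80 to 12.6 FPKM in TG03M and 6.84 to 10.1 FPKM in WT03M. None of their 6 tested markers passed at 10 months (3 at an unadjusted p under 0.05, against 1933 of the 13722 genes tested), and their median was 0.27. B cell markers (4 in the table) were each under 0.5 FPKM in all libraries and summed to 0.174 to 0.328 FPKM in TG10M and 0.0610 to 0.359 FPKM in WT10M. Monocyte and neutrophil markers summed to 2.28 to 15.9 FPKM in TG10M and 5.55 to 12.5 FPKM in WT10M, and none of the 3 tested passed, also unadjusted. T cell markers summed to 0.696 to 1.67 FPKM in TG10M and 1.23 to 2.40 FPKM in WT10M, and dendritic cell markers to 7.44 to 9.16 FPKM in TG10M and 6.67 to 8.07 FPKM in WT10M. Among T and dendritic cell markers 0 of 1 and 0 of 2 tested passed, with 1 each at an unadjusted p under 0.05. The T cell sum was mostly Cd4, at a mean of 1.10 FPKM in TG10M and 1.81 FPKM in WT10M. The other 4 T cell markers were under 0.5 FPKM in all libraries. Of them, Cd3e, Cd3g and Cd8a had a higher mean in TG10M than in WT10M and Cd3d a lower one. The dendritic sum was mostly Zbtb46 and Flt3. Itgax, known from dendritic cells and from activated microglia and named after its values were seen, was under the filter for testing. It had 0.423 to 1.56 FPKM in TG10M and 0.0461 to 0.171 FPKM in WT10M, with no overlap.

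Astrocytes, in which Tlr3 is known as well, had 2 of 8 markers that rose at 10 months, the filament gene Gfap by 1.34 (adjusted p = 0.000134) and the water channel gene Aqp4 by 0.52 (adjusted p = 0.00162). Of all genes tested, 0.583% rose at this threshold. An unadjusted p under 0.05 was found for 7 of the 8, against 1933 of the 13722 genes tested. Without the set apart, 6 of the 8 passed, against 2.38% of all genes tested in either direction. Vtn, which encodes vitronectin, was the 1 of 5 mural cell markers that rose (0.58, adjusted p = 0.0237; 0.159 with the 10-month groups alone), and 3 of the 5 had an unadjusted p under 0.05. None of 6 endothelial, 5 choroid plexus, 6 neuron and 6 oligodendrocyte markers passed, at medians of 0.32, -0.18, -0.11 and 0.19. Of them, 2, 0, 1 and 3 had an unadjusted p under 0.05, against the same 1933 of the 13722 genes tested. No marker of these lists that is in the table was at 0 in all 20 libraries, and the part of any of these cells in the differences was not tested.

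The transcript tables give 1 transcript for Tlr2, Cd14, Ly86, Tlr9 and Tlr13, and nearly all of the Tlr4 and Tlr3 signal (99.1% for Tlr3) fell on a single transcript. For Tlr7 the main transcript of 3776 bases held 83.1% and for Cd180 that of 2650 bases 59.8% of the gene's FPKM. Tlr1 was divided into 57.0% and 43.0% between transcripts of 3025 and 2783 bases. At these low levels the division into transcripts rests on few fragments.

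Within groups, the 7 tested genes varied together to different degrees. With group means removed, Pearson's r over the 20 libraries was highest for Ly86 and Tlr7 (0.663), Tlr4 and Ly86 (0.586) and Cd14 and Ly86 (0.514). Tlr3 had r of -0.317 to 0.234 with the other 6. Among all genes tested, the 3 most like Ly86 in this measure were C1qa (0.907), a subunit of complement C1q, Rttn (0.867) and Dennd5a (0.855). For Cd14 they were Smim5 (0.771), Hcst (0.727) and Rep15 (0.720), and for Tlr2 the cathepsin gene Ctsz (0.751), Asb2 (0.749) and the myeloid transcription factor gene Cebpa (0.744). Those of Tlr4 were Cct3 (0.862), Rnase4 (0.861) and Adipor1 (0.854), and those of Tlr7 were Fam178a (0.821), Jmjd6 (0.816) and Ubp1 (0.808). Tlr13 was most like Bin2 (0.741), Exosc2 (0.706) and BC049715 (0.703), and Tlr3 was most like the axon guidance receptor gene Dcc (0.808), Dgkb (0.807) and Foxo1 (0.794). These r values describe 20 libraries that share preparation and the set apart, and they carry no p.

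Among the genes that act with these receptors, the transport protein gene Unc93b1 was the only one tested that rose at 10 months. Unc93b1 carries the endosomal receptors from the endoplasmic reticulum to endosomes. It averaged 5.94 ± 0.312 FPKM in TG10M and 4.25 ± 0.353 FPKM in WT10M, with no overlap, and rose by 0.44 (SE 0.07, adjusted p = 0.00198, highest adjusted p with 1 library left out 0.0112). In young mice it averaged 4.57 ± 0.174 FPKM in TG03M and 3.99 ± 0.376 FPKM in WT03M (difference 0.18, adjusted p = 0.332). It was also higher in TG10M than in TG03M, by 0.35 (adjusted p = 0.0132), and did not pass there when the set apart was left out (adjusted p = 0.0903). It was 1 of 21 tested adaptors, kinases and trafficking genes, whose median at 10 months was -0.04, and 0.583% of all genes tested rose there. Of the 21, 5 had an unadjusted p under 0.05, against 1933 of the 13722 genes tested. Others of the 21 were the kinase genes Irak1 (-0.19, adjusted p = 0.244) and Ikbkb (-0.21, adjusted p = 0.290) and the chaperone gene Cnpy3 (0.20, adjusted p = 0.277).

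Of the remaining family members, 2 of 6 were tested and neither passed in limma, with 1 at an unadjusted p under 0.05. Over all genes, 1933 of the 13722 tested were at an unadjusted p under 0.05 in TG10M against WT10M. Each unadjusted count in this paragraph is to be read against that share. Ly96, the lipopolysaccharide-binding partner of Tlr4, averaged 1.76 ± 0.278 FPKM in TG10M and 1.09 ± 0.376 FPKM in WT10M (difference 0.53, adjusted p = 0.183), and Tlr6 averaged 1.08 ± 0.265 FPKM in TG10M and 0.719 ± 0.282 FPKM in WT10M (difference 0.39, adjusted p = 0.357). Tlr5, Tlr8, Tlr11 and Tlr12 were each under 0.5 FPKM in every library. None of the 10 transcription factor genes passed at 10 months (4 at an unadjusted p under 0.05), at a median of 0.15, with the largest differences for Irf7 (0.62, adjusted p = 0.190) and Spi1, which encodes PU.1 (0.52, adjusted p = 0.109). Without the set apart the Spi1 difference was 0.73 and passed (adjusted p = 0.0169), as did 2.38% of all genes tested in either direction. Irf5 rose by 0.53 in TG10M against TG03M (adjusted p = 0.0348), but did not pass in 8 of the 10 fits with 1 library left out (highest adjusted p = 0.111) and neither without the set apart (adjusted p = 0.209) nor with the transgenic groups alone (adjusted p = 0.154). Of 8 tested inhibitors none passed (3 at an unadjusted p under 0.05), at a median of 0.06, with Nfkbia at 0.43 (adjusted p = 0.132) and the deubiquitinase gene Cyld at -0.27 (adjusted p = 0.145). Without the set apart Cyld was at -0.29 and passed (adjusted p = 0.0443). Of 9 genes whose products are known as endogenous ligands none passed either (2 at an unadjusted p under 0.05), at a median of -0.00, with the matrix genes Fn1 at 0.42 (adjusted p = 0.190) and Bgn at 0.41 (adjusted p = 0.144).

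Genes that these receptors are known to induce were mostly under the filter for testing, with 3 of 18 tested (Ptgs2, Lcn2 and Il1a, median -0.02). Of the 18, 8 were under 0.5 FPKM in all libraries. None of the 3 passed, and 0 had an unadjusted p under 0.05, against 1933 of the 13722 genes tested. The chemokine genes Ccl3 and Ccl4, named after their values were seen, were under the filter for testing. Ccl3 averaged 0.776 ± 0.229 FPKM in TG10M and 0.182 ± 0.186 FPKM in WT10M, and 0.0728 FPKM in TG03M and 0.0495 FPKM in WT03M. Ccl4 averaged 0.864 ± 0.294 FPKM in TG10M and 0.157 ± 0.180 FPKM in WT10M, and 0.0381 FPKM in TG03M and 0.0625 FPKM in WT03M. TG10M did not overlap WT10M or TG03M for either gene. Ccl2, also named after its values were seen, did the same, at 0.149 to 1.03 FPKM in TG10M. Its highest value was 0.136 FPKM in WT10M and 0.143 FPKM in TG03M. Cxcl10 averaged 0.847 ± 0.590 FPKM in TG10M and 0.185 ± 0.0922 FPKM in WT10M, with overlap. Among all genes tested, TG10M lay wholly above WT10M for 1.65% and above TG03M for 1.84%. Of the other induced genes under the filter, Ccl5, Nlrp3, Nos2, Il12b and Cxcl2 had a lower mean in TG10M than in WT10M. Tnf, Il1b, Il6, Ccl2, Cxcl1, Cxcl10 and Saa3 had a higher one, and Ifnb1 was listed at 0 in both groups. Ccl3 was listed at 0 in 5 of the 20 libraries and Ccl4 in 9, and since a lower filter would admit them largely through TG10M, no test is given.

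**Figure D4:**
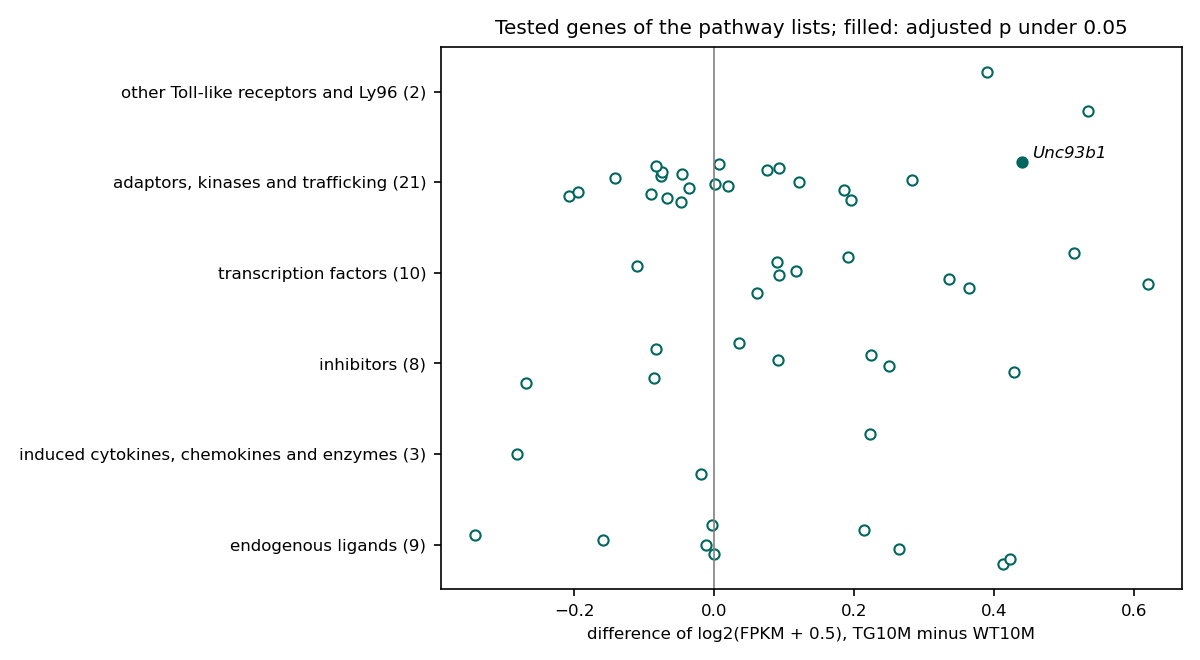
Differences between TG10M and WT10M on the log2(FPKM + 0.5) scale (x axis) for the tested genes of 6 pathway lists, 1 point per gene, with the number tested in brackets and a vertical jitter. The filled point, Unc93b1 at 0.44, passed at an adjusted p under 0.05, and the unfilled point on the far right is Irf7 at 0.62.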

How the data were processed

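The authors deposited FPKM per transcript for each of the 20 libraries, from total RNA of frozen cortex with RIN above 7, per the labels' protocols. The submitters' processing notes name GRCm38 (mm10), CASAVA, TopHat2, Cuffdiff and DESeq2. Neither their roles and versions nor the use of strand is given in these sources. FPKM was summed per gene (50660 transcripts, 21949 genes), after 27 symbols that a spreadsheet had turned into dates were restored by gene ID. Depth was estimated from the steps between low FPKM values of 1817 genes with a single transcript of over 4000 bases; at least 77.6% of these values in each library lay within 0.1 of a whole multiple of the step. Genes with a mean of at least 0.5 FPKM (13722) were tested on log2(FPKM + 0.5) with limma 3.58.1 in R 4.3.3 (lmFit, contrasts, eBayes with trend), in one fit of the 4 groups with 16 residual degrees of freedom, two-sided, with Benjamini-Hochberg adjustment over all genes and calls under 0.05. The fit was tested on simulated data with independent noise for each value. These data hold no set apart, so that test says nothing about its effect. A filter of 0.1 FPKM (15533 genes) gave values for the low genes. The genes and lists were chosen with earlier results of these data known. In each list, up to 4 tested genes with the smallest p at 10 months could be named, plus for each tested receptor or co-receptor the 3 genes of highest r. Sall1, Gpr34 and Aif1 are among the markers named outside this rule. The single-gene result of 1 microglia marker is not reported here. Positions are from GENCODE M21 on GRCm38. Alternatives were other pseudocounts, filters, scalings, weights and variance priors, the main transcript in place of the sum, a replicate block, the compared groups alone, and leaving out libraries.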

Additional observations from a re-analysis of the deposited data

Results flagged for a closer look

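In TG03M, replicate 4 stood apart from the other 4 libraries for 2 genes. Cd14 had 1.46 FPKM there and 0.959 to 1.08 FPKM in the others, with a gap of 0.730 of the group's range. Tlr7 had 1.01 FPKM there and 0.633 to 0.679 FPKM in the others, with a gap of 0.862 of the range. Both exceed Dixon's 95% limit for 5 samples (0.71). Of the sets of 5 values examined, 40 in all, chance passes about 1 in 20.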

How the results depend on the processing

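Over the settings other than leaving out 1 library, no tested difference of the 7 genes changed sign. The count of genes called in TG10M against WT10M was 2, and it was 4 with array weights, which added Tlr2 (adjusted p = 0.0305) and Tlr7 (adjusted p = 0.0221) and called 945 genes in all. It was 0 with the compared groups alone, where 16 genes were called in all and the adjusted p was 0.130 for Cd14 and 0.148 for Ly86. With 1 library left out it was 0 to 5: 0 without TG10M replicate 1 or WT10M replicate 3, 1 without TG10M replicate 4, and 5 without WT10M replicate 5. That fit calls 1600 genes. It leaves TG10M libraries both in and outside the set apart, but WT10M libraries only outside it. Genotype and set are therefore partly confounded in that fit. In TG10M against TG03M the count was 3, and 1 (Ly86) both without the set apart and with the compared groups alone (adjusted p = 0.0721 for Tlr2 and 0.0991 for Cd14), and 2 to 3 with 1 library left out. In TG03M against WT03M, WT10M against WT03M and the interaction it was 0 under every alternative run. With 1 library left out, 3 small differences changed sign: Tlr7 in TG03M against WT03M (-0.026 to 0.15), Tlr3 in TG10M against TG03M (-0.00036 to 0.080) and Tlr13 in WT10M against WT03M (-0.0084 to 0.093). Same-number replicates had r over 0.1 in 5 of 30 pairs (-0.425 to 0.660). The highest was replicate 5 of TG10M and WT10M, both of the set apart. Pairs of different numbers were not examined, so whether the numbers pair the samples is not settled. With the replicate block the counts of genes called were 2, 0, 3, 0 and 0 of the 7 (72, 44, 94, 5 and 6 over all genes). Low fragment numbers limit Tlr1, Tlr9, Cd180 and Tlr2 most.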
